A study of Mus musculus with 18 samples.

Results

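Gene expression was compared between skin flaps that lay over a D15L150 spacer and flaps that lay over a D15L100 spacer, with 3 libraries in each group. These are 6 of the 18 libraries of a mouse skin series. They were chosen by their group labels, which share the first number (15) and differ in the second (150 against 100). The rule used no measured value, but earlier results of these data were known when the comparison and the gene lists were chosen. The spacers are printed meshes that vary in diameter and spacing; each lay beneath a flap until the skin was taken at day 7. The other groups are Control flaps, which had no treatment after surgery, and flaps with D15L200, D100L150 or D150L150 spacers, each with 3 libraries. What D and L stand for, and in which unit, is not said in the labels, and the strain, sex and age of the mice are not stated there either. All 6 flaps compared held a spacer, so a response common to spacers cancels out of the comparison. The question it addresses is whether the second number goes with a difference in the tissue's expression while the first is held.

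A skin flap is a piece of skin that is raised and laid back on its bed, so that it holds healing epidermis, hair follicles, dermis, fat, the thin muscle sheet below mouse skin and the vessels that keep it alive. Epidermis renews itself from basal keratinocytes, which move upward, switch keratins and build the cornified envelope and barrier lipids. A spacer is also an implanted material, and macrophages, neutrophils and mast cells are known to gather at implants. In whole tissue, fewer cells of a type and less RNA per cell cannot be told apart.

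The 6 libraries held 28841520 to 34511676 fragments assigned to genes, as recovered from the deposited values, and 12314 to 12488 genes at 1 FPKM or more (fragments per kilobase of gene and per fixed number of counted fragments). The skin label was borne out by its markers: the basal keratin gene Krt5 lay at 777 to 2728 FPKM and the collagen gene Col1a1 at 1965 to 3355. Other tissue was present in every library, with the skeletal muscle creatine kinase gene Ckm at 201 to 2346 FPKM, lowest in D15L150 3. Library D15L100 2 correlated more closely with D15L150 1 and D15L150 2 (Pearson's r across genes 0.988 and 0.985) than with D15L100 1 (0.975) and D15L100 3 (0.956). D15L150 3 correlated at 0.973 with D15L100 2 and at 0.959 and 0.966 with the other D15L150 libraries. Genes are not independent replicates, so these values describe the libraries only. It is not stated whether the libraries of a group came from separate mice, so the p-values below measure the spread of these libraries alone, and part of that spread may be technical.

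No gene passed the test. Of 13078 genes, 0 (0%) had an adjusted p under 0.05 in limma (Benjamini-Hochberg adjustment), and the smallest adjusted p was 0.719. An unadjusted p under 0.05 was reached by 617 genes (4.72%), where the threshold alone gives 653.9; 353 of them were higher in D15L150 (2.7%) and 264 lower (2.02%). A voom fit to the recovered fragments also called 0, with 578 genes (4.42%) at an unadjusted p under 0.05. Without the filter on low values limma called 3 of 27743 genes (0.0108%), all near 0 FPKM in every library. The count at an unadjusted p under 0.05 moved with single libraries: it was 1654 (12.6%) without D15L100 2, 306 (2.34%) without D15L100 1, 203 (1.55%) without D15L100 3 and 390 (2.98%) without D15L150 3, with 0 calls (0%) in each. The median difference was -0.02 on the log2(FPKM + 1) scale, D15L150 minus D15L100, with quartiles of -0.16 and 0.11. The median size was 0.14 and the median standard error 0.17. In 8157 genes (62.4%) the difference was smaller than its own standard error. Differences beyond 1 on this scale were found in 222 genes, 168 of them higher in D15L150 and 54 lower. Since none of the genes named below passed, each value is a size with its standard error and not a call.

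**Figure D1:**
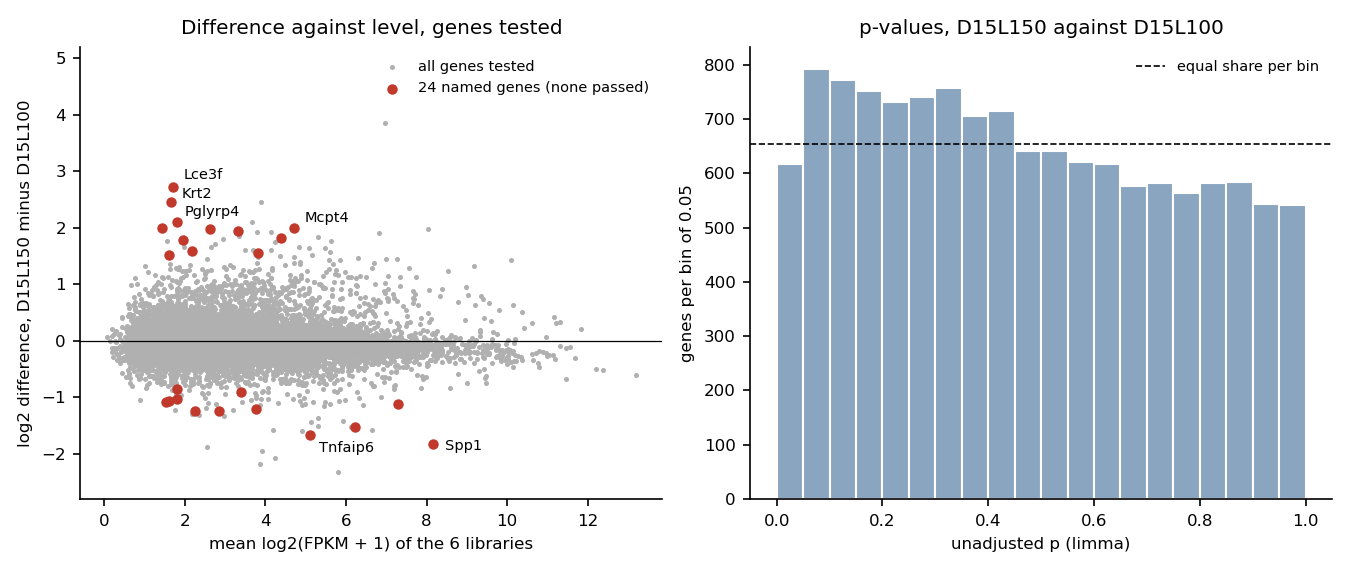
Left, each point is 1 of the 13078 genes tested, with the mean log2(FPKM + 1) of the 6 libraries on the x axis and the log2 difference, D15L150 minus D15L100, on the y axis; the 24 chosen genes are red. Right, the number of genes in each bin of unadjusted limma p of width 0.05; the first bin holds 617 genes, below the 653.9 of an equal share (dashed line).

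Where labels carry no information, 3 and 3 libraries separate with a probability of 0.1, counting either direction. Near that share, the groups did not overlap in 1318 genes (10.1%), 437 higher in D15L150 (3.34%) and 881 lower (6.74%). This split depends on the scaling: by FPKM 33.2% of these genes were higher, but with each library rescaled to TPM, which gives every library the same sum, 535 were higher (4.09%) and 468 lower (3.58%), and with quantile scaling 529 (4.04%) and 791 (6.05%). TPM scaling moved the median difference of all genes from -0.02 to 0.04. An unadjusted p under 0.05 together with groups that did not overlap was found in 141 higher (1.08%) and 185 lower genes (1.41%). The 24 genes chosen for description are the 12 in each direction with the largest difference among these, predicted genes left aside. Most of them are named below, and in all of them the groups are apart by the rule of choice.

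Keratinocyte genes of the cornified layer and mast cell proteases made up 8 of the 12 genes chosen as higher. Lce3f, a late cornified envelope protein gene at chromosome 3, 92992217 to 92993426 (GRCm38), lay at 0.0943, 0.567 and 0.213 FPKM in D15L100 1, 2 and 3 and at 4.63, 4.04 and 19.8 FPKM in D15L150 1, 2 and 3. Every D15L150 library was above every D15L100 library, as the rule of choice required, and D15L150 3 was far above its mates. The difference was 2.72 ± 0.51 (log2, standard error; limma adjusted p = 0.719). Its neighbours Lce3d, Lce3a and Lce3e were higher by 1.95 ± 0.62, 1.79 ± 0.69 and 1.59 ± 0.55 and did not pass either. Lce3d, for example, lay at 4.47, 4.38 and 3.35 FPKM against 13.6, 7.89 and 55.7 FPKM. D15L150 3 was again far the highest, and without it the differences of Lce3d, Lce3a and Lce3e were 1.18, 1.04 and 0.88. The 4 genes are alike in sequence and lie side by side, so fragments may be split between them and they do not count as independent genes.

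Krt2, the keratin of late suprabasal cells (chromosome 15, 101810689 to 101818956), lay at 0.0332, 1.38 and 0.0125 FPKM in the D15L100 libraries and at 3.03, 6.82 and 12.01 FPKM in the D15L150 libraries. D15L100 2 was the only library of its group above 0.1 FPKM, and the groups did not overlap. The difference was 2.46 ± 0.44 (limma adjusted p = 0.719), and Krt2 passed the filter on low values only through D15L150, which favours a higher value there. In the other groups Krt2 reached at most 0.0229 FPKM in Control, 2.24 in D15L200, 0.293 in D100L150 and 0.206 in D150L150, so the 3 D15L150 libraries were the highest of all 18. For Lce3f this was not so: it lay at 3.50 to 8.01 FPKM in D15L200, 7.04 to 18.6 in D100L150 and 4.57 to 12.1 in D150L150, and at 0.156 to 1.02 in Control. Pglyrp4, which encodes an antibacterial peptidoglycan recognition protein of epithelia, was at 0.479, 1.72 and 0.163 FPKM in D15L100 and at 4.59, 5.17 and 9.78 FPKM in D15L150 (2.10 ± 0.49). Adh6a, of the alcohol dehydrogenase family, differed by 1.99 ± 0.61 (1.30 without D15L150 3).

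Mcpt4, a chymase of connective tissue mast cells (chromosome 14, 56059744 to 56062310), lay at 7.91, 36.0 and 5.85 FPKM in D15L100 1, 2 and 3 and at 44.9, 47.8 and 63.4 FPKM in D15L150. The D15L150 libraries were close together, while D15L100 2 lay near them and far from the other D15L100 libraries. Cma1, a further mast cell chymase, had the same order, with 5.76, 29.6 and 5.70 FPKM against 33.4, 38.5 and 44.2 FPKM. Tpsb2, a mast cell tryptase, lay at 4.37, 19.2 and 4.198 FPKM against 20.1, 24.8 and 25.1 FPKM. The differences were 2.00 ± 0.93, 1.82 ± 0.83 and 1.55 ± 0.63, each with a limma adjusted p of 0.885. Left without D15L100 2, Mcpt4 differed by 2.75 ± 0.97 (limma adjusted p = 0.315), still short of the threshold. C7, which encodes a component of the complement pore, was at 2.19, 5.03 and 0.567 FPKM against 8.67, 8.0 and 19.9 FPKM (1.97 ± 0.71). Hoxc10, a homeobox gene of the posterior body, was at 2.27, 0.214 and 0.449 FPKM against 4.27, 6.03 and 2.66 FPKM (1.52 ± 0.52), here with D15L100 1 nearest to the other group.

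Among the 12 genes chosen as lower, Spp1 had the highest level. Spp1 (chromosome 5, 104435111 to 104441053) encodes osteopontin, a secreted matrix protein and cytokine made by macrophages and other cells of healing wounds. It lay at 545, 526 and 531 FPKM in D15L100 and at 241, 123 and 113 FPKM in D15L150. The D15L100 libraries differed little from each other, and each lay above each D15L150 library. The difference was -1.83 ± 0.73 (limma adjusted p = 0.885). Spp1 spread widely in the groups not compared, with 463 to 2122 FPKM in Control and 171 to 1361 FPKM in D15L200, and this spread enters the standard error because all groups share it. Tnfaip6, whose product binds hyaluronan and is induced by inflammatory cytokines, lay at 45.7, 90.7 and 53.6 FPKM against 12.7, 30.3 and 16.1 FPKM (-1.66 ± 0.60). Sfrp2, a secreted modulator of WNT signalling made by fibroblasts, lay at 304, 163 and 253 FPKM against 148, 147 and 54.4 FPKM (-1.12 ± 0.47), with D15L100 2 just above the D15L150 libraries; without D15L150 3 the difference was -0.65.

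The other genes named as lower belong to several cell types. Sln encodes sarcolipin, an inhibitor of the muscle calcium pump, and differed by -1.53 ± 0.68. F7 encodes coagulation factor VII and differed by -1.24 ± 0.47. Cxcl9, an interferon-induced chemokine for T cells, lay at 13.7, 6.50 and 11.03 FPKM in D15L100 and at 1.83, 5.67 and 4.34 FPKM in D15L150 (-1.24 ± 0.56). Tmem100, a membrane protein gene of endothelium, was at 22.8, 16.8 and 19.8 FPKM against 8.12, 11.9 and 5.14 FPKM (-1.20 ± 0.45). ND6, the subunit of respiratory complex I that is encoded on the light strand of the mitochondrial genome, lay at 7.09, 2.49 and 2.103 FPKM against 1.95, 0.674 and 0.935 FPKM (-1.06 ± 0.36, and -0.63 without D15L100 1). The NAD synthesis gene Nmnat1 lay at 15.03, 11.8 and 13.05 FPKM against 8.47, 2.79 and 11.4 FPKM (-0.90 ± 0.40, and -0.39 without D15L150 2). The difference of Nmnat1 thus rested largely on 1 library, and that of ND6 in part. The neuropeptide gene Npy differed by -1.04 ± 0.48. Library D15L100 2 was the member of its group nearest to D15L150 in 9 of the 12 genes chosen as higher and in 8 of the 12 chosen as lower. D15L150 3 was the most extreme D15L150 library in 11 of the 12 higher and in 5 of the 12 lower genes.

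**Figure D2:**
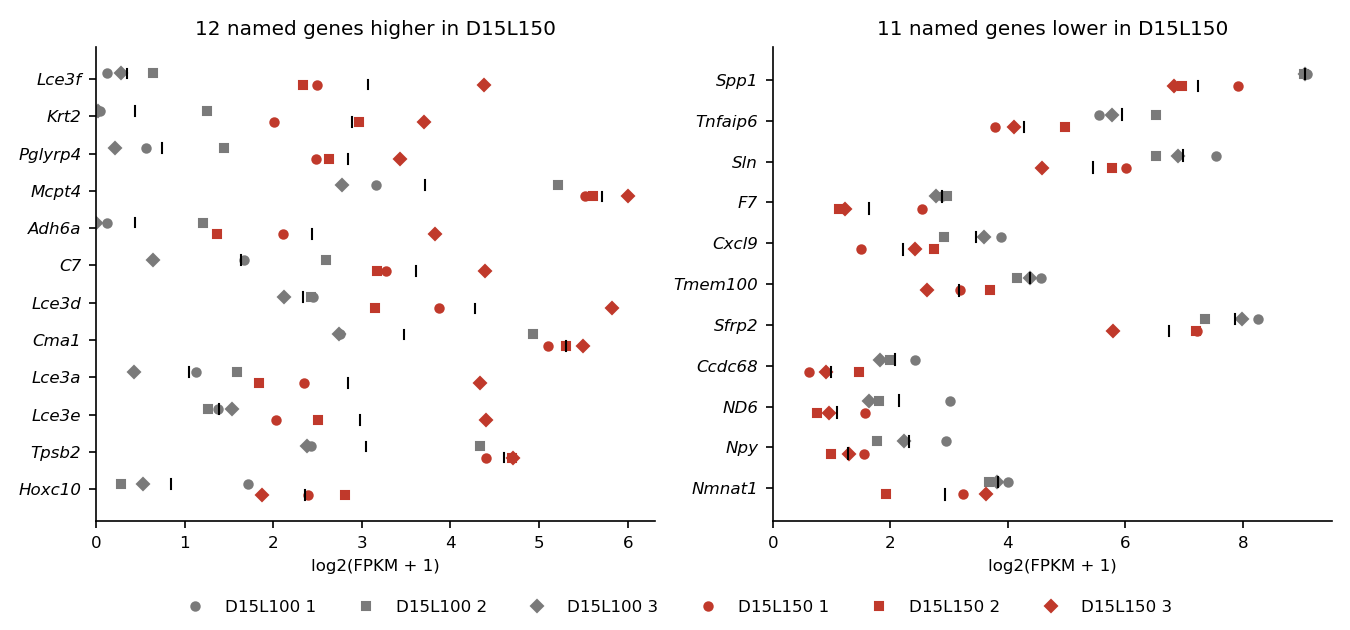
Each row is a named gene, each marker 1 library on the log2(FPKM + 1) scale (grey, D15L100; red, D15L150; the shape gives the replicate) and each black tick a group mean. The grey square, D15L100 2, is the grey marker nearest to red in 9 of the 12 genes on the left and in most of the 11 on the right.

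Genes of epidermal differentiation were described next as a list, by the count of members above and below 0 and their median, beside all genes (44.8% above 0, 55.2% below 0, median -0.02). All 34 members of the suprabasal and cornified envelope list were above 0, with a median of 0.95; 8 of them had an unadjusted p under 0.05 (2.7% of all genes, higher), 0 passed, and in 3 the groups did not overlap, all higher (3.34% of all genes). Krt2, counted among the 34, the 8 and the 3, passed the filter only through D15L150, which favours a higher value there. The desmosomal cadherin gene Dsc1 lay at 33.0, 75.2 and 15.2 FPKM in D15L100 and at 50.8, 86.0 and 126 FPKM in D15L150 (1.26 ± 0.51). Its groups overlapped, with D15L100 2 above D15L150 1. The mean log2(FPKM + 1) of the list, its level, was 6.30, 6.35 and 4.19 in D15L100 1, 2 and 3 and 6.06, 6.87 and 7.27 in D15L150. D15L100 3 was thus low, and D15L100 1 and 2 lay above D15L150 1. Without D15L100 3 the median was 0.20 and 26 of the 34 members were above 0. The suprabasal difference therefore rested largely on that library.

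Neighbouring epidermal lists also moved with single libraries, though not always with D15L100 3. All 16 genes of epidermal barrier lipid synthesis were above 0 (median 0.69), among them Abca12, the lipid transporter of lamellar granules, at 5.18, 11.4 and 1.63 FPKM against 9.56, 12.6 and 20.1 FPKM (1.31 ± 0.46), and Alox12b, the epidermal lipoxygenase, at 12.9, 15.7 and 1.68 FPKM against 14.9, 18.2 and 34.7 FPKM (1.38 ± 0.56). In both genes D15L100 3 was lowest and D15L150 3 highest, and the groups overlapped; without D15L100 3 the differences were 0.73 and 0.54. The median was 0.30 without D15L100 3 and 0.45 without D15L150 3. Of 20 wound-activated keratinocyte genes 17 were above 0 (median 0.52, 0.25 without D15L100 3 and 0.27 without D15L150 3). The kallikrein protease gene Klk10, in this list, lay at 19.4, 74.1 and 9.598 FPKM against 64.4, 62.1 and 121 FPKM (1.65 ± 0.64). Its groups overlapped through D15L100 2, and the difference was 1.02 without D15L100 3 and 2.44 without D15L100 2. All 10 genes of interfollicular basal keratinocytes were above 0 (median 0.49), and here the median was 0.24 without D15L100 1, 0.15 without D15L150 3 and 0.61 without D15L100 3. Of 20 sebaceous gland genes 16 were above 0 (median 0.54), and without D15L100 3 the median was -0.08 with 8 above 0, and without D15L150 3 it was 0.25. None of these genes passed.

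Hedgehog signalling runs from a secreted ligand through the receptor Ptch1, which holds back Smo, to the Gli transcription factors, and Ptch1 and Gli1 are themselves switched on by the pathway. The ligand genes Shh, Ihh and Dhh were below the filter on low values. Of the 9 genes tested, 9 were above 0 by FPKM (8 with quantile scaling), with a median of 0.32, and the groups did not overlap in 5, all higher in D15L150, beside 3.34% of all genes by FPKM and 4.09% by TPM. Ptch1 (chromosome 13, 63508328 to 63573460) lay at 1.74, 2.38 and 1.81 FPKM in D15L100 and at 3.41, 2.69 and 4.18 FPKM in D15L150. The groups did not overlap, and the difference was 0.56 ± 0.13 (limma adjusted p = 0.885). Gli1 was at 1.53, 2.12 and 1.21 FPKM against 2.71, 2.67 and 3.78 FPKM (0.63 ± 0.25). Smo, the signal transducer, was at 11.8, 12.8 and 10.8 FPKM against 14.6, 14.3 and 16.3 FPKM (0.32 ± 0.21). The level of the list was 2.63 to 2.74 in the D15L150 libraries, 2.31 to 2.46 in D15L100 and 1.70 to 2.62 in the 12 libraries of the other groups. Leaving out any 1 of the 6 libraries gave a median of 0.27 to 0.38, with 7 to 9 of the 9 members above 0.

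WNT genes showed a similar lean. Of 33 tested, 24 were above 0 by FPKM (23 with quantile scaling, 25 by TPM), with a median of 0.29; the groups did not overlap in 7 higher (3.34% of all genes) and 1 lower (6.74%), the latter being Sfrp2, given above. Wnt5b, a ligand counted among both the 24 and the 7, passed the filter only through D15L150, which favours a higher value there. Wnt4, a ligand of epidermis, lay at 6.54, 8.18 and 6.63 FPKM against 9.59, 11.4 and 22.8 FPKM (0.85 ± 0.32). The WNT co-receptor gene Lrp5 lay at 13.1, 17.4 and 13.5 FPKM against 20.2, 19.1 and 21.4 FPKM (0.45 ± 0.15). Both were higher in every D15L150 library, and the difference of Wnt4 was 0.50 without D15L150 3. Wnt7b, a further epidermal ligand, differed by 1.24 ± 0.45 with overlapping groups, at 1.05, 3.57 and 0.614 FPKM against 3.17, 3.53 and 9.45 FPKM (0.81 without D15L150 3). Without D15L150 3 the median of the list was 0.15.

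Hair shaft and inner root sheath genes were mostly too low to test: 9 of the 30 passed the filter, 8 of them above 0 (median 0.65). Krt28, an inner root sheath keratin, lay at 0.873, 0.326 and 0.0774 FPKM in D15L100 and at 1.85, 4.01 and 1.40 FPKM in D15L150 (1.23 ± 0.25, limma adjusted p = 0.828). It passed the filter only through D15L150. Foxn1, a transcription factor of hair and epidermal differentiation, was at 0.523, 1.24 and 0.309 FPKM against 1.28, 1.36 and 2.28 FPKM (0.66 ± 0.21), with the groups just apart. The root sheath keratin genes Krt71 and Krt27 stood at 18.8 and 8.30 FPKM in D15L150 2 alone and at no more than 0.533 and 0.288 FPKM in any other library. The median of the hair shaft and inner root sheath list was 0.28 without D15L150 2, 0.32 without D15L100 3 and 0.38 without D15L150 3. Hair follicle stem cell genes, of which 15 of 16 were tested, showed no common lean. Of these, 9 were above 0 and 6 below 0 (median 0.075, and -0.018 without D15L150 3).

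Mast cell genes had the highest median of the 41 lists. Of 8 tested, 7 were above 0 by FPKM (6 with quantile scaling), with a median of 1.36, and 5 had an unadjusted p under 0.05, all higher (2.7% of all genes). Cpa3, the mast cell carboxypeptidase, lay at 2.35, 20.03 and 2.34 FPKM in D15L100 and at 19.9, 25.8 and 32.1 FPKM in D15L150 (2.10 ± 0.86). D15L100 2 overlapped the D15L150 libraries here. Fcer1a, the binding chain of the IgE receptor, lay at 0.170, 1.71 and 0.321 FPKM against 2.53, 2.12 and 3.23 FPKM (1.16 ± 0.43). Kit and Gata2, which mast cells share with other cells, differed by 0.15 and 0.01, and Hdc, the histamine synthesis gene that neutrophils also express, by -1.13 ± 1.21. The list level was 2.27, 3.45 and 2.15 in D15L100 and 3.66, 3.45 and 3.64 in D15L150, beside 3.50 to 3.85 in D15L200, 2.81 to 3.58 in D150L150, 2.09 to 3.58 in D100L150 and 2.28 to 2.99 in Control. The highest libraries of D150L150 and D100L150 thus reached the D15L150 range. Leaving out 1 library at a time gave medians of 1.09 to 1.87. The part that blood or other cells play was not tested. All 6 globin and erythroid genes tested were above 0 (median 1.09), and the groups did not overlap in 3, all higher (3.34% of all genes). Hbb-bs lay at 77.5, 170 and 33.8 FPKM in D15L100 and at 221, 197 and 214 FPKM in D15L150 (1.45 ± 0.84, and 0.87 without D15L100 3). Hba-a1 overlapped, with D15L100 2 at 119.8 FPKM and D15L150 3 at 119.0 FPKM.

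Lymphatic and blood endothelial genes differed in sign. Of 5 lymphatic genes tested 4 were above 0 (median 0.69, with 0.44 without D15L150 1 and 1.03 without D15L150 2), and the groups did not overlap in 3, all higher (3.34% of all genes). The lymphatic list level was 2.99, 3.56 and 3.02 in D15L100 and 3.95, 3.54 and 3.91 in D15L150, so the groups overlapped through D15L100 2. It was 3.48 to 3.66 in D15L200, 3.46 to 3.74 in D100L150, 3.42 to 3.63 in D150L150 and 2.60 to 3.41 in Control. Ccl21a, the chemokine by which lymphatic vessels draw in dendritic cells, lay at 17.3, 28.7 and 9.64 FPKM against 36.7, 47.6 and 56.0 FPKM (1.39 ± 0.62). It has near-identical copies, so its fragments may be split between genes. Mmrn1, a matrix protein of lymphatic endothelium and platelets, lay at 0.706, 2.504 and 0.813 FPKM against 3.24, 3.14 and 4.75 FPKM (1.07 ± 0.37). All 23 blood endothelial genes were below 0 (median -0.48), 0 passed, and the groups did not overlap in 3, all lower (6.74% of all genes by FPKM, 3.58% by TPM). Esam, an adhesion molecule of endothelial junctions, lay at 30.0, 21.4 and 36.4 FPKM against 22.4, 18.6 and 11.2 FPKM (-0.74 ± 0.45). Gja5, the connexin of arterial endothelium, lay at 10.5, 4.06 and 9.36 FPKM against 5.04, 4.502 and 3.23 FPKM (-0.70 ± 0.44). In both genes D15L100 2 fell among the D15L150 libraries, and Esam was at -0.47 without D15L150 3. The blood endothelial median was -0.69 without D15L100 2 and -0.28 without D15L150 3. Of 14 pericyte and vascular smooth muscle genes 13 were below 0 (median -0.29), with the smooth muscle actin gene Acta2 at 193, 88.1 and 147 FPKM against 72.9, 101 and 64.3 FPKM (-0.79 ± 0.35).

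**Figure D3:**
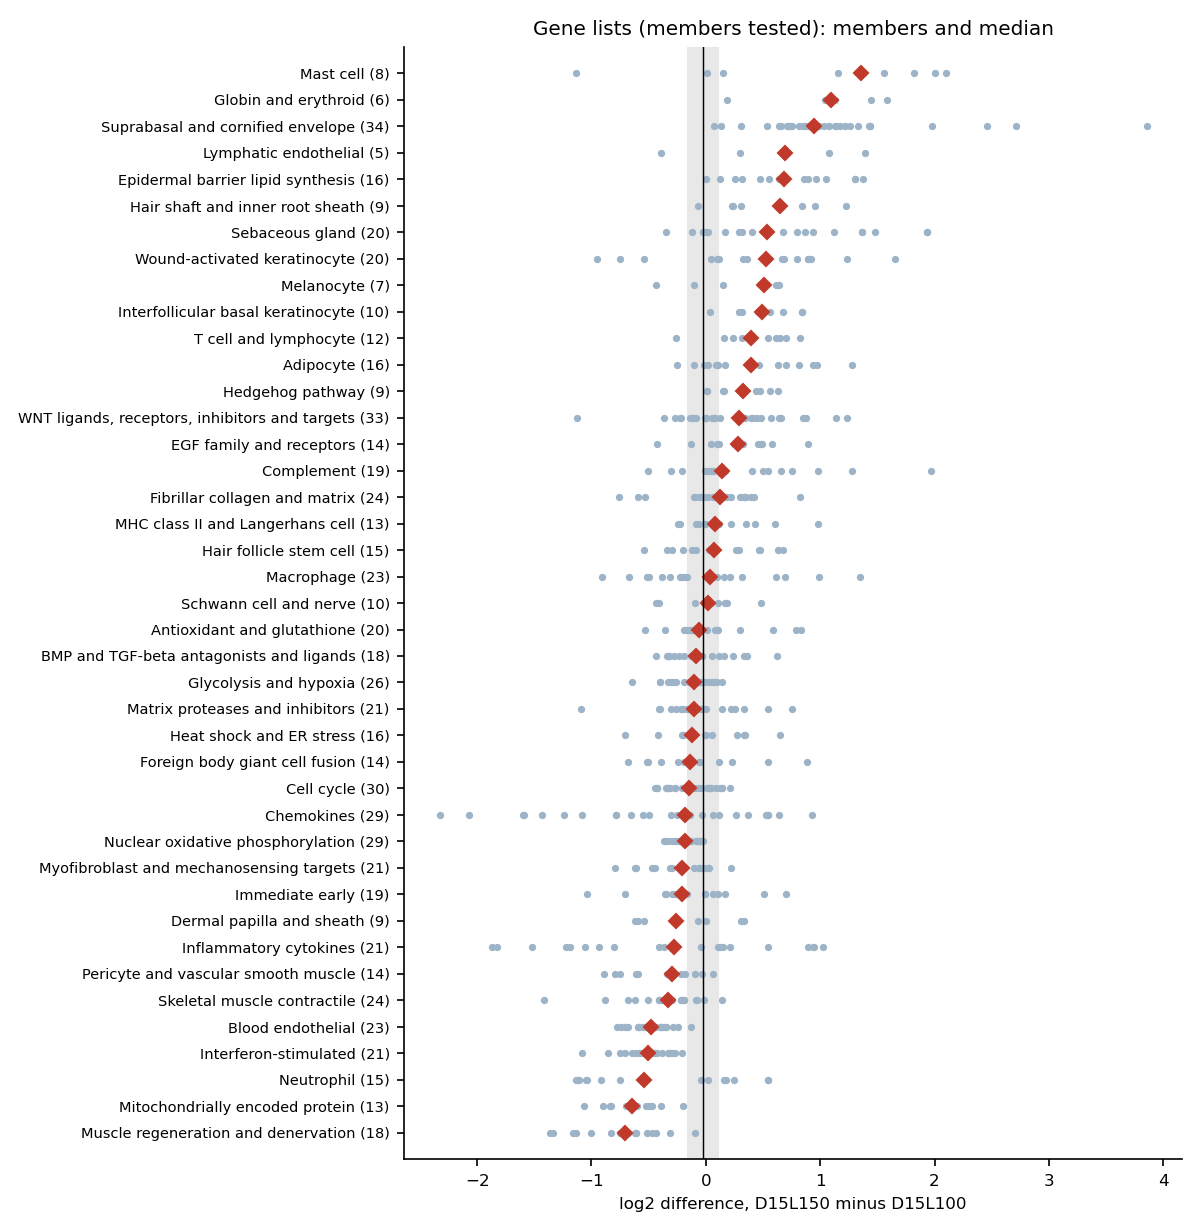
Each row is 1 of 41 gene lists, with the number of members tested in brackets; small points are members and red diamonds the list median of the log2 difference, D15L150 minus D15L100. The line is the median of all genes (-0.02) and the grey band their quartiles (-0.16 to 0.11); the mast cell list lies highest (1.36) and the muscle regeneration list lowest (-0.71).

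Interferon-stimulated genes, which cells switch on to resist viruses and in answer to other interferon sources, leaned to D15L100. All 21 tested were below 0 (median -0.51), and the groups did not overlap in 11, all lower in D15L150, beside 6.74% of all genes by FPKM. None had an unadjusted p under 0.05. Bst2, the surface protein that tethers virus particles, lay at 249, 231 and 330 FPKM in D15L100 and at 186, 186 and 153 FPKM in D15L150 (-0.61 ± 0.31). Gbp2, an interferon-induced GTPase, lay at 45.4, 30.5 and 49.9 FPKM against 26.3, 24.4 and 21.6 FPKM (-0.75 ± 0.40). Cxcl10, an interferon-induced chemokine, lay at 41.8, 49.0 and 130 FPKM against 39.0, 30.7 and 22.4 FPKM (-1.08 ± 0.67, and -0.58 without D15L100 3). In each of the 3 genes the D15L100 libraries lay above the D15L150 libraries, with D15L100 3 highest. The list level was 5.18 to 5.72 in D15L100 and 4.61 to 5.17 in D15L150, but 4.41 to 5.73 in Control and 4.31 to 5.93 in D150L150, so the spread within those groups was wider than the gap. All 21 genes also lay below 0 with TPM or quantile scaling and with any 1 of the 6 libraries left out. In the 11 genes whose groups did not overlap, leaving out 1 library cannot change the sign. Interferon switches these genes on together and all were read in the same libraries, so they do not count as independent genes. The median was -0.35 without D15L100 3.

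Promoter letters, which the comparison did not use, were read for these genes. Interferon-regulated promoters are known to carry the interferon-stimulated response element, whose core repeats GAAA. The letters GAAANNGAAA, or TTTCNNTTTC on the other strand, overlaps allowed, stood within 250 bases before the start in 978 of 32851 promoter windows of the RefSeq table (2.98%). Of the 21 interferon-stimulated genes tested, 17 had a window, and 11 of those (64.7%) held the letters. A gene was counted when any of its windows held them, while the 2.98% counts single windows, so the 2 shares are not alike. The list was made of interferon-stimulated genes, so its share says nothing about D15L150 against D15L100. The other windows, those of Ifi44, Ifih1, Ifit2, Irf7, Oasl1 and Oasl2, held none. The windows of Bst2 (chr8:71537473-71537722, minus strand), Gbp2 (chr3:142620413-142620662, plus strand) and Cxcl10 (chr5:92348890-92349139, minus strand) are printed because they are the 3 genes described above, from RefSeq on GRCm38.p6, 5′ to 3′ on the gene's strand, ending at the base before the start. Capitals mark the matches, of which Bst2 has 2 that overlap and the others 1 each. A match describes the letters and is no evidence of binding.
Bst2: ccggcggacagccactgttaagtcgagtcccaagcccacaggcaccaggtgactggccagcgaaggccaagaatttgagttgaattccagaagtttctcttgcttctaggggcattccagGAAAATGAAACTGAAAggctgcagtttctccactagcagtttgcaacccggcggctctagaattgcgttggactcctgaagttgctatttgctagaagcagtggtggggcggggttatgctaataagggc
Gbp2: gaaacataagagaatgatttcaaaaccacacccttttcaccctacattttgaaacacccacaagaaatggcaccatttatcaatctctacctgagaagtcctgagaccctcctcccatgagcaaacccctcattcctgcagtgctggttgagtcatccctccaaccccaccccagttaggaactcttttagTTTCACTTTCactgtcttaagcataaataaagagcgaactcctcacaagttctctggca
Cxcl10: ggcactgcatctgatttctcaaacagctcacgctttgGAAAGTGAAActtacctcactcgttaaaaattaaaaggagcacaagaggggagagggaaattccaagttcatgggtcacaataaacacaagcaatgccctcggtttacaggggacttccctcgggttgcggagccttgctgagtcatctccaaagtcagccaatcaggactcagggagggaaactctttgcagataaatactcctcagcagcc

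Cytokine and chemokine genes were split. Of 21 inflammatory cytokine genes 12 were below 0 (median -0.28), and the groups did not overlap in 6, all lower (6.74% of all genes by FPKM, 3.58% by TPM). The median moved with single libraries. It was -0.04 without D15L100 2 and -0.03 without D15L150 2, with 12 and 11 members below 0. With D15L100 1, D15L100 3, D15L150 1 or D15L150 3 left out it was -0.42, -0.29, -0.40 and -0.44. Nos2, the inducible nitric oxide synthase of activated macrophages, lay at 5.14, 14.6 and 13.4 FPKM against 2.29, 3.99 and 0.710 FPKM (-1.87 ± 0.98), with the groups apart. In the other direction the keratinocyte cytokine gene Il36b lay at 40.7, 24.2 and 4.81 FPKM against 20.9, 42.6 and 52.8 FPKM (1.02 ± 0.63, and 0.20 without D15L100 3), with overlap. Of 29 chemokine and receptor genes 20 were below 0 (median -0.18), and the groups did not overlap in 8 lower (6.74% of all genes by FPKM, 3.58% by TPM) and 1 higher (3.34% and 4.09%). That median was -0.31 without D15L100 1, -0.43 without D15L150 1 and -0.28 without D15L150 3. Cxcl2, which draws in neutrophils, lay at 275, 81.1 and 85.9 FPKM against 63.0, 12.2 and 17.4 FPKM (-2.33 ± 1.60). Its wide standard error reflects the spread over all 18 libraries. Neutrophil genes had 9 of 15 below 0 (median -0.54, and -0.32 without D15L100 1). Macrophage genes showed no common lean, with 13 of 23 above 0 (median 0.04): the lysosomal protease gene Ctss lay at 848, 840 and 782 FPKM against 624, 582 and 549 FPKM (-0.49 ± 0.22), and Trem2, a lipid-sensing receptor, at 77.2, 54.3 and 57.1 FPKM against 49.7, 45.8 and 35.6 FPKM (-0.51 ± 0.22), while the mannose receptor gene Mrc1 lay at 46.3, 88.3 and 63.1 FPKM against 125, 86.1 and 86.9 FPKM (0.61 ± 0.35).

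Muscle genes depended on which libraries were compared. Of 24 contractile genes 23 were below 0 (median -0.33), but without D15L150 3 the median was 0.37 with 21 above 0, and without D15L100 3 it was 0.09 with 15 above 0. With D15L150 1, D15L150 2 or D15L100 2 left out it was -0.68, -0.68 and -0.56. The list level was 7.52, 7.42 and 8.74 in D15L100 and 8.22, 8.36 and 6.01 in D15L150, so that D15L150 3 had by far the least muscle RNA. Genes of muscle regeneration and denervation held their sign more widely: all 18 were below 0 (median -0.71). The median was -0.41 to -1.0 when 1 library was left out, -0.41 being the value without D15L100 1. The list level was 5.14, 3.95 and 4.60 in D15L100 and 3.89, 4.14 and 3.43 in D15L150, so D15L100 2 fell among the D15L150 libraries. The groups did not overlap in 3 members, all lower (6.74% of all genes by FPKM, 3.58% by TPM). Myod1, the master regulator of myoblasts, lay at 31.7, 17.1 and 19.98 FPKM against 16.6, 14.2 and 10.3 FPKM (-0.68 ± 0.27, and -0.43 without D15L100 1), with the groups apart. Mymx, needed for myoblast fusion, lay at 21.7, 4.74 and 13.8 FPKM against 4.38, 5.49 and 2.47 FPKM (-1.33 ± 0.63), with overlap through D15L100 2.

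Transcripts of the mitochondrial genome were below 0 in all 13 protein genes by FPKM and TPM (median -0.64), and 5 had an unadjusted p under 0.05, all lower (2.02% of all genes). COX1, the core subunit of cytochrome oxidase, lay at 14298, 7825 and 13855 FPKM in D15L100 and at 7445, 8382 and 7056 FPKM in D15L150 (-0.61 ± 0.26), but its difference was 0 with quantile scaling, which gives the top ranks of all libraries the same value. D15L100 2 again lay within the range of D15L150. The 13 genes took 8.09, 5.18 and 9.09% of all FPKM in D15L100 and 5.60, 5.58 and 4.41% in D15L150. The means were 7.45 ± 2.03% (SD, n = 3) and 5.199 ± 0.681% (SD, n = 3), and the groups overlapped (two-sided exact permutation test, p = 0.3, where 3 against 3 libraries cannot go below 0.1). The median over the 13 genes was -0.89 without D15L100 2, -0.45 without D15L100 1 and -0.40 without D15L100 3. Nuclear genes of oxidative phosphorylation were all below 0 by FPKM (29 of 29, median -0.19) but 24 of 29 by TPM and 25 of 29 with quantile scaling, and the median was -0.05 without D15L100 3 and -0.32 without D15L100 2.

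**Figure D4:**
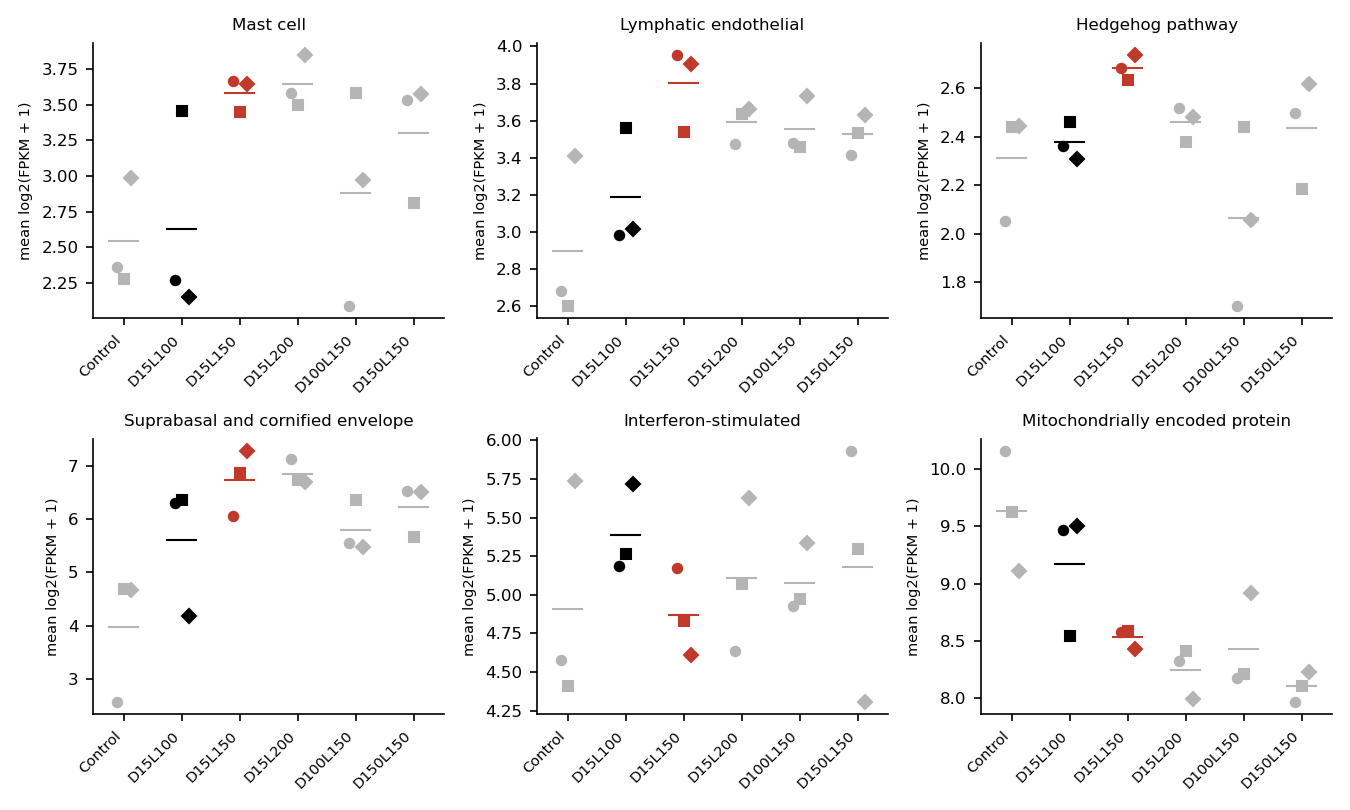
The level of 6 gene lists, the mean log2(FPKM + 1) of the members tested, in each of the 18 libraries (marker shape gives the replicate, the bar the group mean; black, D15L100; red, D15L150; the y axes differ and do not start at 0). D15L100 2 (black square) lies with the D15L150 libraries for the mast cell list (3.45) and the mitochondrial list, and D15L100 3 (black diamond) lies lowest of its group for the suprabasal list (4.19).

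Of the lists left, those of matrix, giant cell fusion, cell cycle, glycolysis and complement genes had medians of -0.15 to 0.14. Fibrillar collagen and matrix genes had 16 of 24 above 0 (median 0.13), with the collagen gene Col1a2 at 2195, 2153 and 1660 FPKM against 2979, 2546 and 2493 FPKM (0.42 ± 0.45) and the collagen cross-linking enzyme gene Loxl2 at 86.4, 103 and 73.4 FPKM against 55.1, 60.6 and 39.2 FPKM (-0.76 ± 0.32). In both the groups did not overlap, in opposite directions. Genes of foreign body giant cell fusion had a median of -0.14 over 14 members, cell cycle genes of -0.15 over 30, and glycolysis and hypoxia genes of -0.10 over 26. Complement genes had a median of 0.14 with 15 of 19 above 0 by FPKM, C7 being the furthest. With 1 library left out these medians ran from 0.01 to 0.28 for matrix, -0.19 to -0.04 for giant cell fusion, -0.25 to 0.01 for cell cycle, -0.14 to -0.05 for glycolysis and 0.06 to 0.32 for complement genes. T cell and lymphocyte genes had 11 of 12 above 0 (median 0.40, and 0.22 without D15L150 3) at low levels, with the coreceptor gene Cd4 at 1.46, 3.36 and 1.08 FPKM against 2.77, 4.97 and 4.44 FPKM (0.82 ± 0.50). Melanocyte genes had 5 of 7 above 0 (median 0.51, but 0.13 without D15L100 3), and adipocyte genes 13 of 16 (median 0.39, but -0.07 without D15L100 3). Genes of the EGF family and its receptors had 12 of 14 above 0 (median 0.28, and 0.19 to 0.47 with 1 library left out). Dermal papilla genes had 6 of 9 below 0 (median -0.26, and -0.30 to -0.15), and myofibroblast and mechanosensing genes 17 of 21 (median -0.20, and -0.21 to -0.14).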

How the data were processed

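Per the labels' protocols, flap RNA was isolated with TRIzol, its integrity was read on a Bioanalyzer, and a VAHTS Universal V6 kit was used for the libraries. FPKM values of 27743 genes in 18 libraries were deposited by the authors. Tools named in the submitters' processing notes, without role or order, are HISAT2, HTSeq, fastp, DESeq2 and R 3.2.0, and the build is mm10. Which annotation and strand setting were used is not given in the sources used here. Since each library is divided by its own total, very abundant transcripts shift all other FPKM values.

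Groups came from the sample titles. Values were taken as log2(FPKM + 1), which understates changes of low genes, and genes at 1 FPKM or more in at least 3 of 18 libraries were kept (13078 genes, 14665 removed). A limma model (limma 3.58.1, R 4.3.3; trend and robust moderation, tested on simulated data) took 1 mean for each group over all 18 libraries, which thereby share 1 estimate of the spread; Benjamini-Hochberg adjustment ran over all genes. Whole fragments were recovered from the FPKM steps (within 0.005 of a fragment, in all 27743 genes) and fitted with voom as an alternative. Libraries of the same group differed by a chi-square of 48.56 to 176.8 per gene, far above counting error, and none was taken as a repeat of another. Gene coordinates and promoters came from RefSeq on GRCm38.p6, where 26705 gene IDs matched.

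Named genes are up to 12 per direction with the largest difference among genes past the threshold whose libraries do not overlap; as there were none, the places went to genes with an unadjusted p under 0.05 and no overlap. Of each list the 4 members with the smallest p could be named; Col1a1, Krt5, Ckm, Krt71, Krt27, Kit and Gata2 are markers or list members given besides, and some genes are not reported here. The comparison and gene lists were chosen with earlier results of these data known. Alternatives were other pseudocounts, filters and scalings, a replicate block, only the 6 libraries, a muscle covariate, voom and leaving out each library.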

Additional observations from a re-analysis of the deposited data

How the results depend on the processing

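Leaving out each of the 6 libraries in turn gave 0 to 0 calls and 203 to 1654 genes with an unadjusted p under 0.05 (617 with all): 203 without D15L100 3, 306 without D15L100 1, 390 without D15L150 3 and 1654 without D15L100 2, where the smallest adjusted p was 0.0671; the cause was not tested. Without a filter on low values 3 genes passed and 1294 had an unadjusted p under 0.05, among 27743 genes; the 3, Crhr1, Gm51965 and Or52n4, stayed at or under 0.0403 FPKM in the 6 libraries. With a filter at 5 FPKM 396 of 8901 genes had an unadjusted p under 0.05. With the replicate number as a block there were 0 calls and 538 such genes. The labels name no pairing by replicate number, and same-numbered libraries deviated with correlations of -0.34, -0.34 and -0.48. Deviations from means of only 3 libraries cannot decide whether the numbers pair the libraries. No gene passed with a pseudocount of 0.1, quantile or TPM scaling, only the 6 libraries, the muscle covariate or voom, with 576 to 698 genes at an unadjusted p under 0.05. Of single genes, COX1 was at 0.0 with quantile scaling. Over the fits with 1 library left out, Retn (0.97 with all) ran from -0.0952 without D15L100 3 to 1.51, Mybpc1 (-0.51) from -0.82 to 0.0513, Ryr1 (-0.41) from -0.72 to 0.0724 and Ttn (-0.39) from -0.71 to 0.151, the last 3 being above 0 without D15L150 3. The median standard error of 0.17 limits what 3 libraries per group can show.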

Other observations

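Homeobox genes of the Hox clusters, which carry positional identity in adult skin, were looked at after Hoxc10 had been seen among the named genes. Of 25 Hox genes tested none passed. Hoxa7 lay at 2.81, 2.67 and 1.53 FPKM in D15L100 1, 2 and 3 and at 4.59, 4.02 and 5.04 FPKM in D15L150 (0.75 ± 0.24 on the log2 scale). Hoxa6 lay at 0.972, 1.01 and 0.983 FPKM against 2.01, 1.38 and 2.02 FPKM, and Hoxb9 at 0.887, 0.521 and 0.588 FPKM against 0.944, 1.48 and 1.86 FPKM. In these 3 genes, as in Hoxc10, every D15L150 library was higher, as in 3.34% of all genes, and Hoxc10 was itself chosen for groups that do not overlap. Hoxc8 went the other way, at 9.04, 7.37 and 7.58 FPKM against 6.26, 5.33 and 5.57 FPKM, as in 6.74% of all genes. Whether the flaps were taken from the same place on the body is not given in the sources used here, and its part in these values was not tested.

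Without D15L100 2, the gene with the smallest p was the predicted gene Gm49890, at -1.77 ± 0.26 with a limma adjusted p of 0.0671. Next in order came 3 genes with known products. Slc25a48, a mitochondrial carrier gene, differed by 1.48 ± 0.22 and the amino acid transporter gene Slc6a20a by 1.57 ± 0.24, both with a limma adjusted p of 0.0671, and Krt2 by 2.86 ± 0.44 with 0.0686. These genes were chosen after their values were seen. Krt2 passed the filter only through D15L150, which favours a higher value there. D15L100 2, left out here, was the D15L100 library that correlated most closely with D15L150, so leaving it out favours larger differences.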
